A study of Homo sapiens with 5 samples.

Results

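The CDK inhibitors, the D cyclins and their partner kinases CDK4 and CDK6 were described here as 10 genes out of 13822 in a poly-A+ RNA-seq table of RH4 cells. They were chosen by symbol. CDKN1A, CDKN1B and CDKN1C are the CIP/KIP inhibitors, CDKN2C and CDKN2D are INK4 inhibitors, CCND1, CCND2 and CCND3 are the D cyclins, and CDK4 and CDK6 are the kinases. All 10 were present in the table and passed the filter on low values.

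RH4 is an established line of alveolar rhabdomyosarcoma (ARMS), a childhood tumour of the skeletal muscle lineage. The cells received 30 nM of either a scrambled control siRNA (si-SCR, 3 samples) or an siRNA against the junction that closes the circular RNA circVAMP3 (si-circVAMP3, 2 samples). RNA was taken 48 h into the treatment, with 1 change of medium on the way. The study's methods call the samples biological replicates. The model is limited to 1 cell line and 1 siRNA sequence, and the table holds linear gene models, so circVAMP3 itself has no value in it.

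Progression from G1 into S phase depends on D cyclins, which activate CDK4 and CDK6 to phosphorylate the retinoblastoma family of pocket proteins and so free E2F transcription factors. INK4 proteins bind CDK4 and CDK6 and keep them from the cyclins, whereas CIP/KIP proteins bind whole cyclin-CDK complexes, block CDK2 and can also help cyclin D and CDK4 to assemble. In muscle precursors CDKN1A and CDKN1C are known for their part in leaving the cell cycle during differentiation, and CDK4 is a gene amplified in some ARMS tumours.

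The siRNA is shown because its position decides which RNA it was designed to meet. Its first 19 bases match the joined ends of exons of VAMP3 on chromosome 1 of GRCh38 (GENCODE 44, + strand), at which the end of the donor exon (position 7778169) meets the start of the acceptor exon (position 7777160). The sequence is given 5′ to 3′. Capitals mark the 8 bases before the junction, and lower case marks the 11 bases after it and the overhang.
si-circVAMP3: CAUCAUCGgugguggacauuu

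Linear VAMP3, which shares its exons with the circular RNA, was read at 36.4, 35.4 and 37.4 FPKM in si-SCR and at 29.4 and 30.2 FPKM in si-circVAMP3. FPKM is a count of sequenced fragments divided by the length of the gene's exons and by the size of the library. Both si-circVAMP3 samples lay below all si-SCR samples. VAMP3 fell by 0.29 on the log2 scale (limma, SE 0.0436, adjusted p = 0.00507). The call was lost without si-circVAMP3 1, at -0.27 with limma adjusted p = 0.0525.

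Whole reads could be recovered from the FPKM values, with a scale that was chosen for genes whose recovered exon length differed from the annotated one. They summed to 26441490, 25046768 and 24934487 reads in the si-SCR samples and to 18625463 and 28818756 reads in the si-circVAMP3 samples. Muscle identity was checked on 11 of 12 myogenic and ARMS markers in the table. DES, a muscle intermediate filament, was the most abundant at a mean of 277 FPKM in si-SCR, and the muscle regulators MYOD1 and MYOG had means of 102 and 168 FPKM. No row of the table carried any of 5 blood markers.

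Across the 10 genes, CDKN1A and CCND3 rose, whereas CDKN1B, CDKN2C, CCND2 and CDK4 fell. CDKN1C, CDKN2D, CCND1 and CDK6 did not pass the test. The test was limma on log2(FPKM + 0.1) over 13681 genes, with a gene called at a Benjamini-Hochberg adjusted p under 0.05. All log2 fold changes are differences of si-circVAMP3 from si-SCR on that scale, which understates changes of low genes. The 6 of 10 genes called stand beside 27.5% of all genes tested. Both counts were lower when certain samples were left out, at 2 of 10 and 1277 of 13680 genes without si-circVAMP3 1, 3 of 10 and 1267 of 13683 without si-circVAMP3 2, and 4 of 10 and 2157 of 13681 without si-SCR 2. By direction, 2 of 10 were higher beside 12.8% of all genes, and 4 of 10 were lower beside 14.7%. With a log2 change over 0.58 required as well, CDKN1A and CCND2 remained, or 2 of 10, beside 5.8% of all genes. In 7 of 10 the groups did not overlap, beside 56.6% of all genes. On the recovered reads, limma voom called the same 6 of 10 in the same directions, beside 30.6% of all genes. The median log2 fold change was -0.16 for the 10 genes and 0.00 for all genes tested, and the median absolute values were 0.21 and 0.17.

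**Figure D1:**
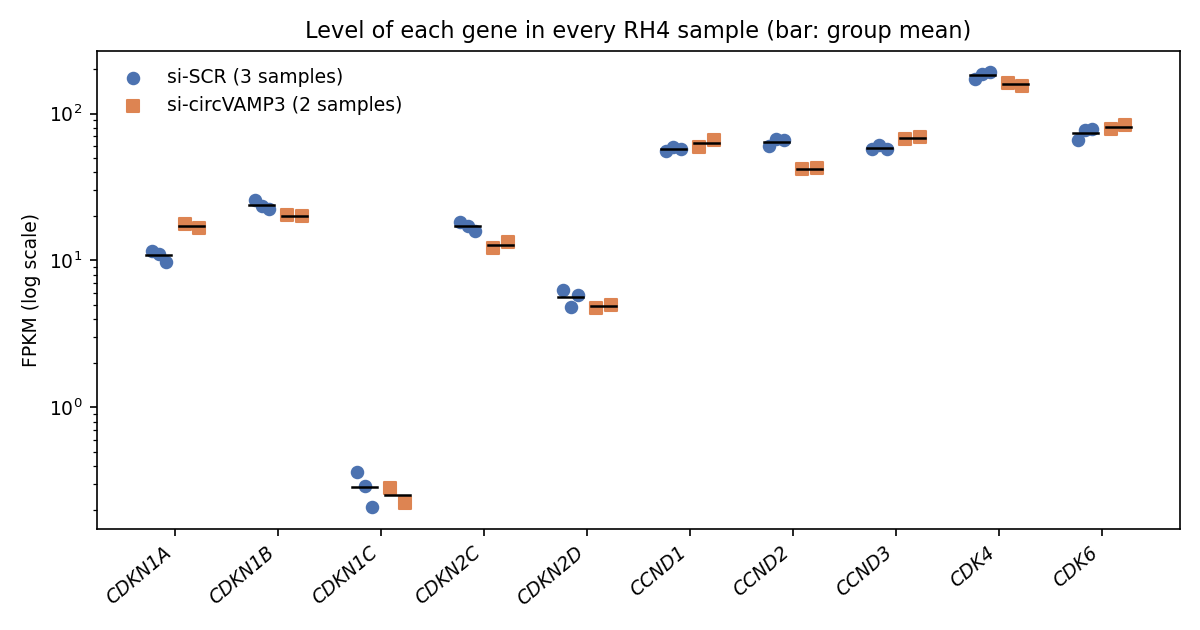
FPKM of each gene on a log axis, with 1 point per sample for 3 si-SCR samples (circles) and 2 si-circVAMP3 samples (squares) and a bar at each group mean. CDK4 has the highest level in every sample, CDKN1C lies under 0.4 FPKM in every sample, and CDKN1A and CCND2 show the widest gaps between groups among genes called.

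The genes spanned a wide range of levels. In si-SCR, CDK4 stood first at 183 ± 9.64 FPKM (SD, n = 3), above 98.8% of all genes tested. CDK6 followed at 73.9 ± 7.12, CCND2 at 64.3 ± 4.03, CCND3 at 58.7 ± 1.77 and CCND1 at 57.7 ± 1.70 FPKM. Within these 4 genes, each overlapped the next in the range of its samples. The inhibitors lay lower and apart from each other, in the order CDKN1B, CDKN2C, CDKN1A, CDKN2D and CDKN1C. In si-circVAMP3, CCND2 stood behind CCND3 and CCND1, and CDKN1A stood ahead of CDKN2C. No neighbours in that order overlapped, although CCND3 and CCND1 came close, the lower CCND3 sample at 66.6 and the higher CCND1 sample at 66.5 FPKM. Levels of different genes compare per length of annotated exon, so a gene with long exons that are little used is read low.

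CDKN1A encodes p21, an inhibitor of cyclin-CDK2 complexes and a widely known target of p53 and of MyoD. Its gene lies at chr6:36676460-36687337 on the + strand of GRCh38. Its level was 11.6, 11.1 and 9.77 FPKM in si-SCR and 17.7 and 16.7 FPKM in si-circVAMP3. Every si-circVAMP3 sample was higher than every si-SCR sample, and the gap between groups was larger than the spread within either. CDKN1A rose by 0.67 on the log2 scale, with a 95% confidence interval of 0.48 to 0.86, or 1.59-fold (limma, SE 0.0806, adjusted p = 0.00231). The change rested on 743 to 1471 reads per sample. These are bulk samples, so a different share of cells expressing a gene and a different amount of RNA per cell cannot be told apart.

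CDKN1B encodes p27, an inhibitor of cyclin-CDK2 that is regulated to a large part by protein turnover, and it lies at chr12:12685498-12722369. Its level was 26.0, 23.4 and 22.3 FPKM in si-SCR and 20.3 and 20.0 FPKM in si-circVAMP3. Both si-circVAMP3 samples were lower than all si-SCR samples, by a small margin against si-SCR 3. CDKN1B fell by 0.24 on the log2 scale (95% interval -0.41 to -0.08, limma, SE 0.0693, adjusted p = 0.0427). The call was lost without si-SCR 1 (-0.18, limma adjusted p = 0.0575), si-SCR 2 (limma adjusted p = 0.0939), si-circVAMP3 1 (limma adjusted p = 0.162) or si-circVAMP3 2 (limma adjusted p = 0.183), and with a variance prior that had no trend (limma adjusted p = 0.093).

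CDKN1C encodes p57, the CIP/KIP inhibitor best known from embryonic tissues and from muscle differentiation, and it is an imprinted gene at chr11:2883213-2885775 on the - strand. It was barely read in RH4 cells, at 0.363, 0.291 and 0.210 FPKM in si-SCR and 0.283 and 0.224 FPKM in si-circVAMP3, from 13 to 24 reads per sample. The groups overlapped, and the 95% interval of the log2 difference ran from -0.61 to 0.37 around -0.12 (limma, adjusted p = 0.702). On the recovered reads limma voom gave -0.18 with a wider interval, from -0.98 to 0.61. The log2 difference changed sign when certain samples were left out, at 0.02 without si-SCR 1 and 0.0005992 without si-circVAMP3 2, and was -0.27 without si-SCR 3 and -0.24 without si-circVAMP3 1. No difference was called, and the parts of read depth, spread between samples and sample number in this were not tested.

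The makeup of the CIP/KIP transcripts differed between the groups. CDKN1A made up 30.6%, 31.9% and 30.3% of the summed CIP/KIP FPKM in si-SCR and 46.3% and 45.3% in si-circVAMP3. CDKN1B made up most of the rest, at 68.2 ± 0.931% (SD, n = 3) and 53.5 ± 0.808% (SD, n = 2). The ratio of CDKN1A to CDKN1B was 0.454 ± 0.0191 in si-SCR and 0.856 ± 0.0263 in si-circVAMP3. The sum of the 3 genes was 35.0 ± 2.88 and 37.6 ± 0.924 FPKM, with overlapping samples. Shares and ratios are descriptions and were not tested.

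CDKN2C encodes p18, an INK4 protein that binds CDK6 and CDK4 and is induced in differentiating muscle cells. The gene lies at chr1:50960745-50974634. Its level was 18.2, 17.2 and 15.9 FPKM in si-SCR and 12.2 and 13.3 FPKM in si-circVAMP3. Both si-circVAMP3 samples were below the lowest si-SCR sample. CDKN2C fell by 0.42 on the log2 scale (95% interval -0.59 to -0.25, limma, SE 0.0712, adjusted p = 0.00775), a level 1.33-fold lower. Without si-circVAMP3 1 the call was lost, at -0.35 with limma adjusted p = 0.0663.

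CDKN2D encodes p19INK4d, an INK4 protein whose level is known to vary through the cell cycle, at chr19:10566460-10569059 on the - strand. Its level was 6.30, 4.84 and 5.78 FPKM in si-SCR and 4.77 and 4.96 FPKM in si-circVAMP3. The groups overlapped at si-SCR 2, and the log2 difference was -0.20 (95% interval -0.47 to 0.06, limma, adjusted p = 0.226). It was -0.12 without si-SCR 1 and -0.31 without si-SCR 2. The sum of CDKN2C and CDKN2D was 24.5, 22.0 and 21.7 FPKM in si-SCR and 17.0 and 18.3 FPKM in si-circVAMP3, and CDKN2C made up 75.2 ± 2.48% and 72.4 ± 0.653% of it. The best known INK4 genes, CDKN2A and CDKN2B, belong to the list of other G1/S genes and are named here to complete the family, after their values were seen. CDKN2A was read at means of 15.7 and 17.5 FPKM (log2 difference 0.16, limma adjusted p = 0.0848) and CDKN2B at 0.174 and 0.249 FPKM (log2 difference 0.35, limma adjusted p = 0.282).

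**Figure D2:**
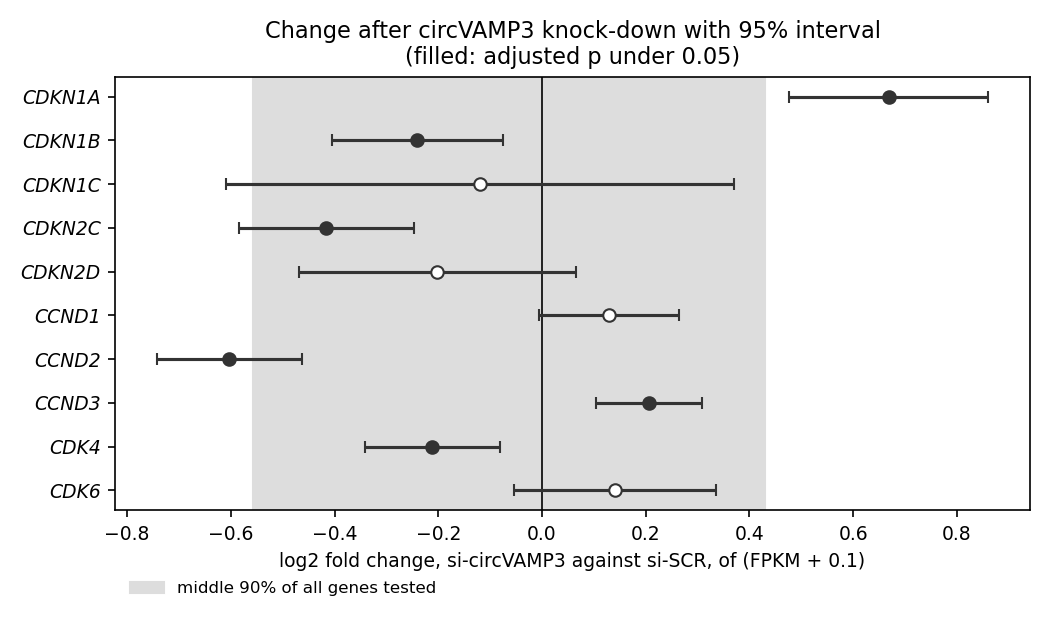
Log2 fold change of (FPKM + 0.1), si-circVAMP3 (2 samples) against si-SCR (3 samples), with 95% confidence intervals from limma and filled points for an adjusted p under 0.05. The grey band holds the middle 90% of all genes tested, from -0.56 to 0.43, and the points of CDKN1A at 0.67 and CCND2 at -0.60 lie outside it.

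CCND2 encodes cyclin D2, and its gene lies at chr12:4269771-4305353. Its level was 59.7, 67.3 and 65.9 FPKM in si-SCR and 41.7 and 42.8 FPKM in si-circVAMP3. The si-circVAMP3 samples lay close together and far below the control samples. CCND2 fell by 0.60 on the log2 scale (95% interval -0.74 to -0.46, limma, SE 0.0587, adjusted p = 0.00121), a level 1.52-fold lower, from 5544 to 12065 reads per sample.

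CCND3 encodes cyclin D3, the D cyclin known to rise and persist in differentiating myotubes, and lies at chr6:41934934-42050357 on the - strand. Its level was 57.7, 60.8 and 57.7 FPKM in si-SCR and 66.6 and 68.9 FPKM in si-circVAMP3. Both si-circVAMP3 samples were above the highest control sample. CCND3 rose by 0.21 on the log2 scale (95% interval 0.10 to 0.31, limma, SE 0.0431, adjusted p = 0.0148), or 1.15-fold. The call was lost without si-circVAMP3 1 (limma adjusted p = 0.069), without si-circVAMP3 2 (limma adjusted p = 0.112), and with a variance prior that had no trend (limma adjusted p = 0.0584).

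CCND1 encodes cyclin D1, a D cyclin that responds to growth factor signals, at chr11:69641156-69654474. Its level was 56.1, 59.5 and 57.5 FPKM in si-SCR and 59.7 and 66.5 FPKM in si-circVAMP3. The groups did not overlap, but si-circVAMP3 1 stood just above si-SCR 2. The log2 difference of 0.13 did not pass the test (95% interval -0.01 to 0.26, limma, adjusted p = 0.138). It was 0.21 without si-circVAMP3 1 and 0.05 without si-circVAMP3 2.

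The D cyclins were present in near equal parts in the control cells and in unequal parts after the knock-down. CCND2 made up 34.4%, 35.9% and 36.4% of the summed D cyclin FPKM in si-SCR and 24.8% and 24.0% in si-circVAMP3. CCND3 made up 32.5 ± 0.715% (SD, n = 3) and 39.1 ± 0.713% (SD, n = 2), and CCND1 made up 31.9 ± 0.340% and 36.4 ± 1.28%. The control samples therefore held CCND1 and CCND2 at a ratio of 0.898 ± 0.0357, and the si-circVAMP3 samples at 1.49 ± 0.0870. The sum of the 3 D cyclins was 174, 188 and 181 FPKM in si-SCR and 168 and 178 FPKM in si-circVAMP3, and the groups overlapped.

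**Figure D3:**
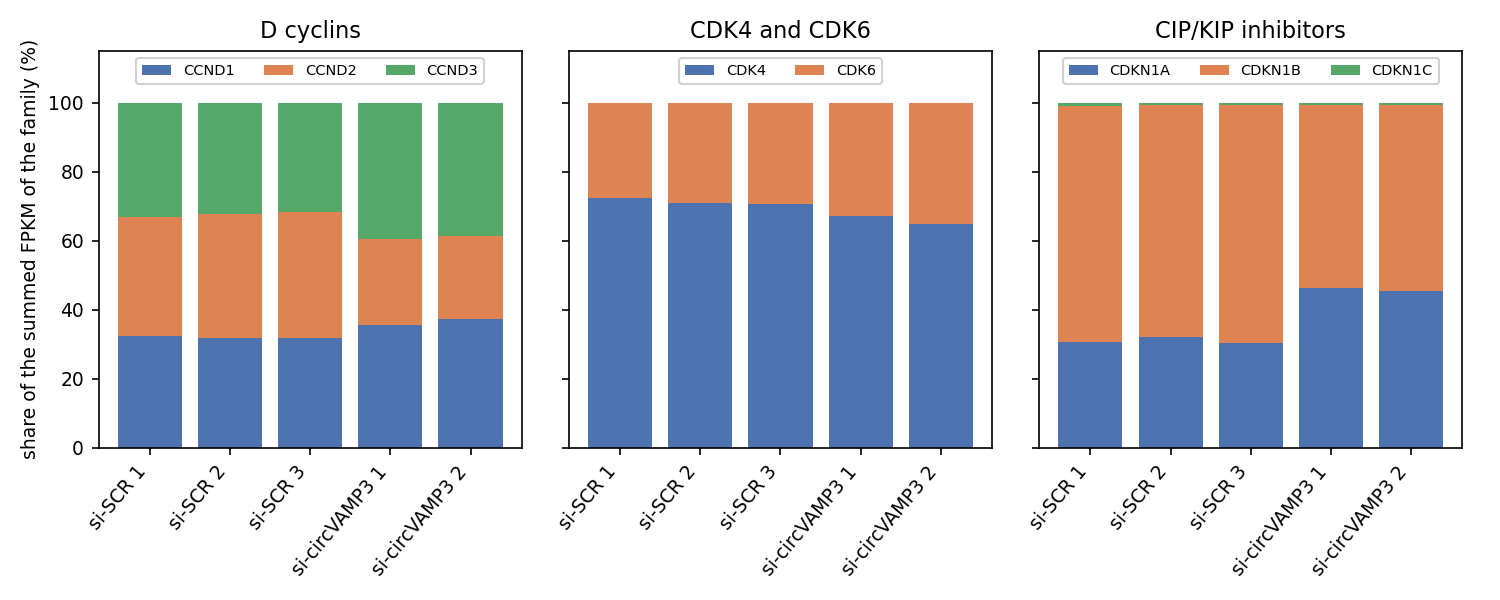
Share of each gene in the summed FPKM of its family in each of 5 samples, as stacked bars that start at 0 and reach 100%. CCND2 takes 34.4% to 36.4% of the D cyclins in si-SCR and 24.0% to 24.8% in si-circVAMP3, and CDKN1A takes 30.3% to 31.9% and 45.3% to 46.3% of the CIP/KIP inhibitors.

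CDK4 lies at chr12:57747727-57756013 on the - strand, and its protein is the main partner of the D cyclins in many proliferating cells. Its level was 172, 186 and 191 FPKM in si-SCR and 162 and 154 FPKM in si-circVAMP3. Both si-circVAMP3 samples were lower than all control samples, though the gap to si-SCR 1 was smaller than the spread among the controls. CDK4 fell by 0.21 on the log2 scale (95% interval -0.34 to -0.08, limma, SE 0.0547, adjusted p = 0.0307), a level 1.16-fold lower. The call was lost without si-SCR 2 (limma adjusted p = 0.0922), without si-circVAMP3 1 (limma adjusted p = 0.0976), without si-circVAMP3 2 (limma adjusted p = 0.182), and with a variance prior that had no trend (limma adjusted p = 0.085).

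CDK6, the closely related kinase, lies at chr7:92604921-92836573 on the - strand. Its level was 65.8, 76.8 and 79.1 FPKM in si-SCR and 78.7 and 83.8 FPKM in si-circVAMP3. The groups overlapped, with si-SCR 1 lowest, and the log2 difference was 0.14 (95% interval -0.05 to 0.34, limma, adjusted p = 0.247). Without si-SCR 1 it was 0.06. CDK4 made up 72.4%, 70.8% and 70.7% of the summed FPKM of both kinases in si-SCR and 67.2% and 64.8% in si-circVAMP3. The sum was 257 ± 16.7 (SD, n = 3) and 239 ± 1.72 FPKM (SD, n = 2), with overlapping samples.

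Promoter sequences from RefSeq (GRCh38.p14), each running from 250 bases before to 50 bases after the annotated start, matched CDKN1A, CDKN1B, CDKN2C, CDKN2D, CCND3, CDK4 and CDK6, or 7 of 10 genes, with 12 entries. CDKN1C, CCND1 and CCND2 had no entry. The windows of CDKN1A (chr6:36678464-36678763, + strand) and CDK4 (chr12:57752261-57752560, - strand) are shown because each holds 3 copies of the E-box form marked in it. Both marked forms are palindromes, so they read alike on both strands, and other E-box forms in the windows are left in lower case. Capitals mark CAGCTG, an E-box form that myogenic bHLH factors can bind, in the first sequence and CACGTG, a form that MYC and related bHLH factors can bind, in the second. Both are given 5′ to 3′ on the strand of the gene.
CDKN1A promoter: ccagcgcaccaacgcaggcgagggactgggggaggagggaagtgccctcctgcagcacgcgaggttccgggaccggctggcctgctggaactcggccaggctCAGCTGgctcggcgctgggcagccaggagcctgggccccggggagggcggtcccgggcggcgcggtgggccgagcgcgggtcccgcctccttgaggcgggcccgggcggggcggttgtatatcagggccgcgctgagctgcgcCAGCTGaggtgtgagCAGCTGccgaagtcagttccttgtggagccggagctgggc
CDK4 promoter: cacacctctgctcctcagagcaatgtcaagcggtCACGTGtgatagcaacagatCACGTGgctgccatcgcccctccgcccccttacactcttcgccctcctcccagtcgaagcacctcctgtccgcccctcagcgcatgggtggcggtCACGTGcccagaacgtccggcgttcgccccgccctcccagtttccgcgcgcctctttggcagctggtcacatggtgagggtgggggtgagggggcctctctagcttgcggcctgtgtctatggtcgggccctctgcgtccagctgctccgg

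CAGCTG was present in 17.5% of 15217 promoters of genes in the table, at 3 or more copies in 0.191%, and in 4 of the 12 entries of the matched genes. CACGTG was present in 9.13% of promoters, at 3 or more copies in 0.158%, and in 4 of the 12 entries. Further motifs were searched on both strands without regard to overlap. GGGCGG, the GC box, was present in 65.8% of promoters and in 9 of the 12 entries. CCAAT was present in 35.1% and in 5 of 12, and GTAAACA, a forkhead motif, in 2.44% and in 1 of 12. TATAAA (6.03% of promoters), the exact E2F motif forms TTTGGCGC (1.01%) and TTTCGCGC (0.841%), and TTTGAA, the CHR element (10.5%), were in 0 of 12. Other forms of the E2F motif were not searched. A match describes letters in the window and is no measure of binding.

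The other G1/S genes listed were the E and A cyclins, CDK1 and CDK2, the pocket proteins, the E2F factors with their partners TFDP1 and TFDP2, CDKN3, and the INK4 genes CDKN2A and CDKN2B. Of 22 tested, 5 rose, 4 fell and 13 did not pass the test, so 40.9% were called beside 27.5% of all genes, with a median log2 fold change of 0.03. CDKN3, a phosphatase that acts on CDK2 and CDK1, fell by 0.66 (limma adjusted p = 0.00369), from 15.1, 14.0 and 15.7 FPKM in si-SCR to 10.3 and 8.53 FPKM in si-circVAMP3. E2F5, a partner of the pocket proteins in repression, rose by 0.63 (limma adjusted p = 0.00493), and the activator E2F3 rose by 0.43 (limma adjusted p = 0.00404). CCNE2, cyclin E2, which activates CDK2 at the start of S phase, rose by 0.44 (limma adjusted p = 0.00483). CCNA1, a cyclin best known from the germ line, fell by 0.33 (limma adjusted p = 0.00876), and the pocket protein gene RBL1 fell by 0.30 (limma adjusted p = 0.0122). CCNA2, cyclin A2, fell by 0.27 (limma adjusted p = 0.00461), E2F4 rose by 0.25 (limma adjusted p = 0.0148) and E2F6 rose by 0.20 (limma adjusted p = 0.0458). The calls of CCNA1, RBL1 and CCNA2 were lost without si-circVAMP3 2 (limma adjusted p = 0.0754, 0.0949 and 0.0505), and that of E2F4 without si-circVAMP3 1 (limma adjusted p = 0.114). E2F6 kept its call when si-SCR 3 was left out but not without any other sample (limma adjusted p from 0.0659 to 0.196).

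Among 20 S phase genes known as E2F targets, 5 rose, 2 fell and 13 did not pass, or 35% called beside 27.5% of all genes, with a median log2 fold change of 0.09. The changes were small. CDCA7 fell by 0.32 (limma adjusted p = 0.0124) and GINS2, a subunit of the replicative helicase, fell by 0.29 (limma adjusted p = 0.0282). RRM2, a subunit of ribonucleotide reductase, rose by 0.20 (limma adjusted p = 0.0123). The clamp loader gene RFC4 rose by 0.20 (limma adjusted p = 0.0181), the clamp gene PCNA by 0.18 (limma adjusted p = 0.0179) the helicase gene MCM7 by 0.15 (limma adjusted p = 0.0399) and RRM1, the other reductase subunit, by 0.13 (limma adjusted p = 0.0335). All 7 calls were lost without si-circVAMP3 1, with limma adjusted p from 0.0656 for PCNA to 0.221 for MCM7, and without si-circVAMP3 2, with limma adjusted p from 0.0551 for RRM2 to 0.154 for RRM1. Without si-SCR 2, CDCA7 alone of these 7 kept its call. RRM1 was also lost without si-SCR 1 (limma adjusted p = 0.0715), and MCM7 was also lost without si-SCR 1 (limma adjusted p = 0.0902) and without si-SCR 3 (limma adjusted p = 0.0566).

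CDKN1A is a classical p53 target, and other known p53 targets were read beside it. Of 23 tested from a list of 24, 1 rose, 4 fell and 18 did not pass, or 21.7% called beside 27.5% of all genes, with a median log2 fold change of -0.03. TP53INP1, a stress protein of autophagy and cell death, was read at 1.03, 1.18 and 1.10 FPKM in si-SCR and at 0.392 and 0.363 FPKM in si-circVAMP3, and fell by 1.33 (limma adjusted p = 0.000873). At this low level its size depends on the pseudocount, with -0.61 at a pseudocount of 1, -1.52 at 0.01 and -1.54 by limma voom on the reads. MDM2, the ubiquitin ligase that degrades p53, was read at 8.18, 8.91 and 9.32 FPKM and at 5.09 and 5.44 FPKM, and fell by 0.73 (limma adjusted p = 0.00139). In the same samples CDKN1A and AEN were higher, and TP53INP1, MDM2, TP53I3 and SESN1 were lower. TP53I3, an oxidoreductase, fell by 0.38 (limma adjusted p = 0.00308) and SESN1, a regulator of mTORC1, fell by 0.26 (limma adjusted p = 0.0336). AEN, a nuclease of apoptosis, rose by 0.37 (limma adjusted p = 0.00708). The SESN1 call was lost without si-SCR 1 (limma adjusted p = 0.0582), si-SCR 2 (limma adjusted p = 0.0787), si-circVAMP3 1 (limma adjusted p = 0.19) or si-circVAMP3 2 (limma adjusted p = 0.0964), and the AEN call without si-circVAMP3 1 (limma adjusted p = 0.0543).

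FOXO factors are known to raise CDKN1A and CDKN1B and to lower D cyclins. Of 12 other known FOXO targets tested from a list of 14, 3 rose, 1 fell and 8 did not pass, or 33.3% called beside 27.5% of all genes, with a median log2 fold change of 0.12. TXNIP, an inhibitor of thioredoxin and of glucose uptake, was read at 15.0, 13.8 and 14.4 FPKM in si-SCR and 36.0 and 32.8 FPKM in si-circVAMP3. It rose by 1.25 on the log2 scale, or 2.38-fold (limma adjusted p = 0.000117), and its groups lay far apart. CITED2, a transcriptional co-regulator, rose by 0.31 (limma adjusted p = 0.0155) and BCL2L11, which encodes the death protein BIM, rose by 0.28 (limma adjusted p = 0.0236). KLF6, a zinc finger factor, fell by 0.52 (limma adjusted p = 0.00832). The calls of CITED2, BCL2L11 and KLF6 were lost without si-circVAMP3 1 (limma adjusted p = 0.0516, 0.105 and 0.0621) and without si-circVAMP3 2 (limma adjusted p = 0.116, 0.14 and 0.0598). BCL2L11 was also lost without si-SCR 2 (limma adjusted p = 0.0786).

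The inhibitors and D cyclins are also controlled by ubiquitin ligases and chaperones. Of 23 genes for their turnover and assembly, 4 rose, 1 fell and 18 did not pass, or 21.7% called beside 27.5% of all genes, with a median log2 fold change of 0.08. FBXO31, an F-box protein known to direct cyclin D1 to degradation, rose by 0.56 (limma adjusted p = 0.00223), from means of 4.43 to 6.57 FPKM. SKP1, the adaptor of F-box ligases, rose by 0.37 (limma adjusted p = 0.00239). CKS1B, the cofactor of SKP2 in the degradation of p27, rose by 0.18 (limma adjusted p = 0.0212), and CDK7, the CDK-activating kinase, rose by 0.18 (limma adjusted p = 0.0437). UBAC1, part of a ligase of p27, fell by 0.20 (limma adjusted p = 0.0131). CKS1B, CDK7 and UBAC1 were lost without si-circVAMP3 1 (limma adjusted p = 0.147, 0.168 and 0.0767), without si-circVAMP3 2 (limma adjusted p = 0.0806, 0.191 and 0.0949) and without si-SCR 2 (limma adjusted p = 0.0513, 0.127 and 0.0564). CDK7 was also lost without si-SCR 1 (limma adjusted p = 0.0787) and on the recovered reads (limma voom adjusted p = 0.0516). Of the 30 genes called on these lists, 10 kept their call when any sample was left out, and they were CDKN3, E2F5, CCNE2, E2F3, TP53INP1, MDM2, TP53I3, TXNIP, FBXO31 and SKP1. With a variance prior that had no trend, E2F6, GINS2, RFC4, PCNA, MCM7, RRM1, CDK7 and CKS1B were lost (limma adjusted p from 0.0629 to 0.116).

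**Figure D4:**
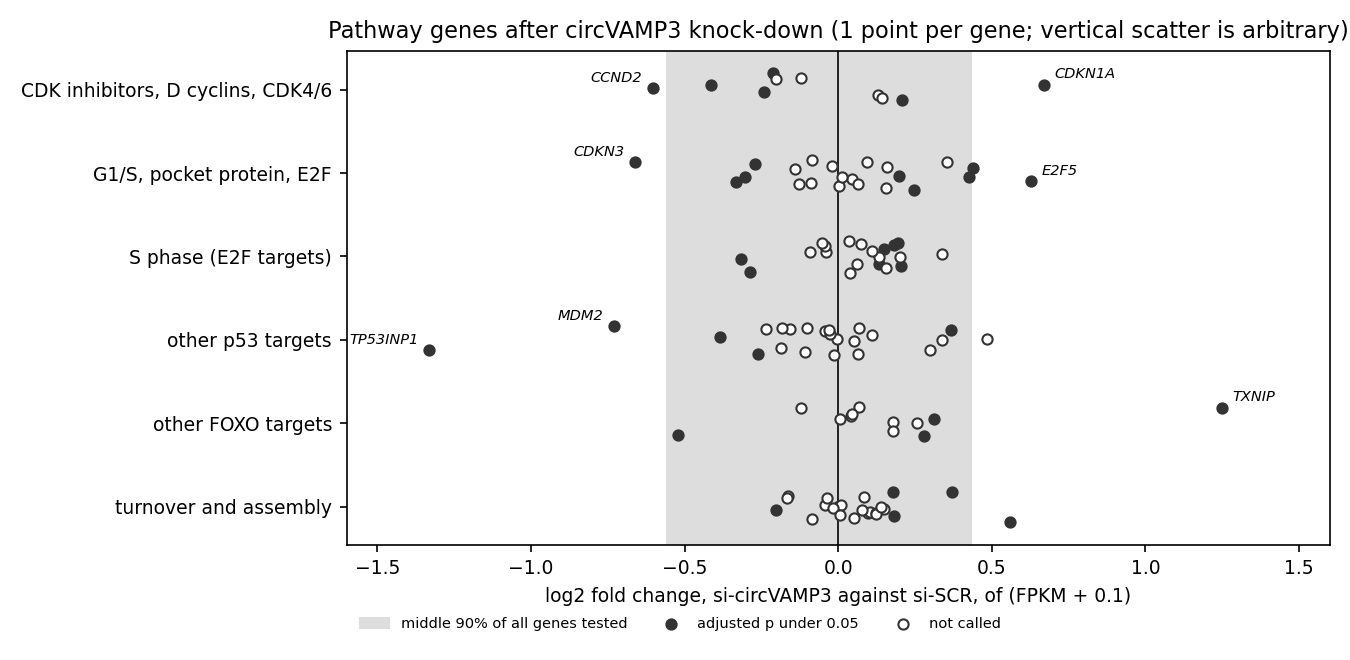
Log2 fold change of (FPKM + 0.1), si-circVAMP3 against si-SCR, with 1 point per gene for the CDK inhibitors, D cyclins and kinases and for the related lists (filled: limma adjusted p under 0.05). The grey band holds the middle 90% of all genes tested, and TP53INP1 at -1.33 and TXNIP at 1.25 lie farthest from 0 among the genes drawn on this scale.

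The summed FPKM of 11 myogenic and ARMS markers was 1034, 1017 and 873 in si-SCR and 834 and 850 in si-circVAMP3, and 3 of the 11 fell, 0 rose and 8 did not pass. The 27.3% called is close to the 27.5% of all genes tested, while the median log2 fold change was -0.23 for these markers and 0.00 for all genes. MYOG, the differentiation factor myogenin, was read at 175, 179 and 149 FPKM in si-SCR and 101 and 96.6 FPKM in si-circVAMP3, and fell by 0.76 (limma adjusted p = 0.00159). The cardiac and embryonic troponin gene TNNT2 fell by 0.46 (limma adjusted p = 0.0328), or by 0.27 at a pseudocount of 1, and FOXO1 fell by 0.28 (limma adjusted p = 0.0259). TNNT2 kept its call without si-SCR 2 but not without any other sample (limma adjusted p from 0.0546 to 0.178), and FOXO1 lost its call without si-SCR 2 (limma adjusted p = 0.0874), si-circVAMP3 1 (limma adjusted p = 0.161) or si-circVAMP3 2 (limma adjusted p = 0.0819). MYOD1 was read at means of 102 and 116 FPKM with overlapping groups (log2 difference 0.20, limma adjusted p = 0.321). The part of muscle differentiation in the differences of CDKN1A, CDKN2C and the D cyclins was not tested.

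Markers of other cell types were read as well. Of 5 epithelial markers, KRT8 had a row, at 0.316, 0.215 and 0.256 FPKM in si-SCR and 0.65 and 0.58 FPKM in si-circVAMP3. It rose by 0.99 (limma adjusted p = 0.00706), or by 0.36 at a pseudocount of 1 and 1.21 at 0.01, a call lost without si-circVAMP3 1 (limma adjusted p = 0.0604). Of 4 endothelial markers, PECAM1 had a row, at 0.0777 to 0.153 FPKM. The 4 of 6 fibroblast markers in the table, led by COL3A1, summed to 35.5, 32.8 and 33.3 FPKM in si-SCR and 31.1 and 28.6 FPKM in si-circVAMP3, and none was called by limma, COL3A1 coming nearest (limma adjusted p = 0.0538). The part of other cell types in these results was not tested.

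The genes with profiles most like that of CDKN1A over the 5 samples were found by the root mean square distance between log2 profiles, each centred on its mean. MYO5B, a myosin motor of membrane traffic, was nearest at a distance of 0.0300, with 1.30, 1.31 and 1.07 FPKM in si-SCR and 2.06 and 1.98 FPKM in si-circVAMP3. ZBTB4, a zinc finger repressor, followed at 0.0347, and DBP, a circadian transcription factor, at 0.0356. Their log2 fold changes were 0.68, 0.62 and 0.63, and those of MYO5B and DBP were 0.44 and 0.36 at a pseudocount of 1. The choice by likeness to CDKN1A fixes this difference between the groups, so it is a description with no test.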

How the data were processed

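Poly-A+ RNA of RH4 cells was sequenced with a stranded library kit on a NovaSeq instrument. According to the study's methods, the authors trimmed reads with Trimmomatic, aligned them with STAR 2.5.2b to GRCh38, counted them per Ensembl gene by strand with HTSeq, and deposited FPKM values made in edgeR. Of 13822 Ensembl identifiers, 13783 were matched to a symbol. FPKM was tested as deposited, on log2(FPKM + 0.1), for 13681 genes with a mean FPKM of at least 0.1, by limma 3.58.1 (R 4.3.3, empirical Bayes with an intensity trend, 3 against 2 samples, no covariates) with Benjamini-Hochberg adjustment over all genes tested. The count model of the methods was not the main test because the deposited unit is FPKM. Whole reads were recovered from the FPKM values of all 13822 genes, as 100% of values at a relative tolerance of 1e-12. They were used for the depths and for limma voom. The exon length recovered with them equalled the annotated one for 9506 genes. For the others the smallest scale that made the length whole was taken, so their reads could be a fraction of the true ones. The stated filter removes genes under 1 CPM in at least 3 samples, and 629 such genes are in the table. Depth limits precision through counting error, which is largest for CDKN1C. The members and lists were chosen with earlier results of these data known. Genes named were the 10 members, linear VAMP3, up to 6 called genes of each list by absolute log2 fold change, and the 3 profiles nearest to CDKN1A. CCNA2, E2F4, E2F6, RRM1, CDKN2A, CDKN2B and the markers given with values were named after their values were seen. Alternatives were another pseudocount, filter, scaling or variance prior, a replicate block, each sample left out, a fold threshold of 0.58, and limma voom. The script of the fit was tested on simulated data.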

Additional observations from a re-analysis of the deposited data

How the results depend on the processing

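CDKN1A and CCND2 kept their direction and limma call in every alternative fit, with log2 fold changes from 0.60 to 0.72 and from -0.66 to -0.57. Over all genes the count called was 3767, against 1267 to 4014 with 1 sample left out and 793 with the fold threshold of 0.58. Of the 10 genes, 6 were called, against 3 with a variance prior without a trend, 2 to 6 with 1 sample left out and 2 with the fold threshold. Of the genes on the related lists 30 were called, against 12 to 34 with 1 sample left out and 5 with the fold threshold. CDKN1C, with a log2 difference of -0.12, had 0.02 without si-SCR 1 and 0.00 without si-circVAMP3 2 (0.01748 and 0.0005992), a range from -0.27 over the samples left out, and CDKN1C, TP53INP1 and KRT8 were not tested at a mean FPKM of at least 1. Of 621 values of single named genes under the alternatives, 520 kept their direction and their side of the threshold. Among genes called, 46.7% were higher, against 28.6% with the fold threshold and 35.6% or 36.6% without si-circVAMP3 1 or 2. Leaving out either leaves 1 si-circVAMP3 sample, which is assumed to vary like the others. With the replicate number as a replicate block, 2868 genes, 5 of the 10 genes and 24 list genes were called. Only si-SCR has a replicate 3, so the block fits si-SCR 3 exactly. The log2 fold changes of this fit are those without si-SCR 3. CDK4 was lost at -0.18 (limma adjusted p = 0.0957). E2F6, PCNA, MCM7, RRM1, SESN1, BCL2L11, CDK7, CKS1B, TNNT2 and FOXO1 were lost as well (limma adjusted p from 0.0522 to 0.119). Same-numbered samples had correlations of deviations of -0.0885 and -0.0161, with 2 pairs. The deviations of the 2 si-circVAMP3 samples from their mean mirror each other. Both correlations therefore rest on the same contrast and cannot decide whether the samples are paired. The numbers were taken as names. The variance prior without a trend, which called 3 of the 10 genes, called 3067 of all 13681 genes and 23 list genes. Limma voom was added after seeing the data, and called 4224 genes. The causes of lost calls were not tested.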
